A study of Mus musculus with 4 samples.

Results

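The genes of the aminoacyl-tRNA synthetases are described here in pro-B cells, early B-lineage cells that recombine their heavy-chain locus. The cells were isolated from marrow of C57BL/6 mice of wild type genotype by the markers B220+cKit+. RNA was hybridized to 4 Mouse Gene 1.0 ST arrays (Affymetrix), 1 per replicate, and no age or treatment is given for the mice. Members were the probe sets whose only gene symbol has the form of a synthetase name (a letter followed by ars, with or without 1, 2, a or b) or is Eprs. The rule found 35 of 34760 probe sets, for 34 of the 19937 genes that have a probe set to themselves. Symbols ending in 2 were taken as mitochondrial enzymes (16 genes) and the others as cytosolic enzymes (18 genes). Iars had 2 probe sets, and the one with the higher mean stood for the gene; no position is given for either, so that both measure the Iars transcript was not tested. Aars shares its probe set with Exosc6 and was left out.

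Each synthetase joins 1 amino acid to the transfer RNAs that carry it, at the cost of ATP, and so matches codons to amino acids. Cytosol and mitochondria use separate sets of enzymes, all encoded in the nucleus, although Gars and Kars each supply both compartments from 1 gene. Several cytosolic enzymes sit in the multisynthetase complex, held together by the scaffold proteins of Aimp1, Aimp2 and Eef1e1. When amino acids run short, uncharged transfer RNA activates the kinase of Eif2ak4, and the transcription factor ATF4 then raises many genes of amino acid supply and of tRNA charging. Its sites with C/EBP partners hold the letters TGATGNAA.

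Promoter windows were read from RefSeq (GRCm38.p6), 250 bases before to 50 after the start site, and matched by gene identifier for 25 of the 34 members. TGATGNAA was searched on both strands. It was found in 4 of 11 cytosolic members with a window and in 0 of 14 mitochondrial ones, against 4.51% of 27025 genes. The 4 matches are shown as the members that hold these letters, with Asns, the asparagine synthetase gene of the same pathway, for comparison. The motif is in capitals, on the strand of the gene; TTTCATCA and TTGCATCA are its letters read from the other strand.
Gars: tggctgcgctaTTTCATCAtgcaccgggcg
Tars: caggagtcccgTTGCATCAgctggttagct
Iars: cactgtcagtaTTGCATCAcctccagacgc
Yars: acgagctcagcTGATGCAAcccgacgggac
Asns: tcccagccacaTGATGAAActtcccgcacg
The Gars window lies at chr6:55037960-55037989 on the plus strand, with the motif's first base 30 bases before the start site. The Tars window lies at chr15:11399655-11399684 on the minus strand, with the motif 15 bases before the start. In Iars (chr13:49682126-49682155, plus strand) the motif begins 7 bases after the start. In Yars (chr4:129189895-129189924, plus strand) it begins 3 bases after the start, and in Asns (chr6:7693214-7693243, minus strand) 23 bases before it. The E-box letters CACGTG, which read the same on both strands and can be bound by Myc and other factors, were in 3 of 11 cytosolic windows (Farsb, Iars and Tars) and 1 of 14 mitochondrial windows (Ears2), against 8.09% of genes. It overlapped no TGATGNAA match. These matches describe the letters of the windows; binding, and any tie to the values below, was not tested.

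The deposited values are log2 intensities, with medians of 7.31 to 7.35 per array. Between arrays, Pearson's r lay at 0.986 to 0.989 over probe sets, which are features and not animals. Whether each replicate is a separate mouse is not stated, so spreads may be technical in part. Xist was at 5.48 on the array of replicate 3, below the background line of 6.54 there, and at 13.04 to 13.17 on the others. A difference in sex between replicate 3 and the other replicates, and its part in the shifts on that array, was not tested. Of the early B-cell markers 11 of 11 with a probe set were above background, but so were 8 of 8 erythroid and 12 of 12 granulocyte and monocyte markers. All markers with a probe set also passed for pre-B and immature B cells (6), plasma cells (5) and T and NK cells (6). Of all genes 63.5% passed, and these counts do not tell the cell types apart. With 1 group, no comparison between conditions was possible, and values on single arrays are given as a description, with no test.

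All 34 members were above background on all 4 arrays, against 63.5% of all 19937 genes. The background line was the 95th percentile over genes for smell, pheromone and taste receptors (1246 probe sets), at 6.53 to 6.62 per array. Single values ran from 8.88 to 12.06 for cytosolic members and from 7.99 to 10.44 for mitochondrial ones. In a one-sided limma test of the value against that line all 34 passed, against 63.1% of all genes, and the largest adjusted p was 2.93e-08 among cytosolic and 3.31e-07 among mitochondrial members. Levels of different probe sets are not on 1 scale, so neither an order of genes nor a higher class is read from them, and only the changes of a gene between arrays are compared below.

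**Figure D1:**
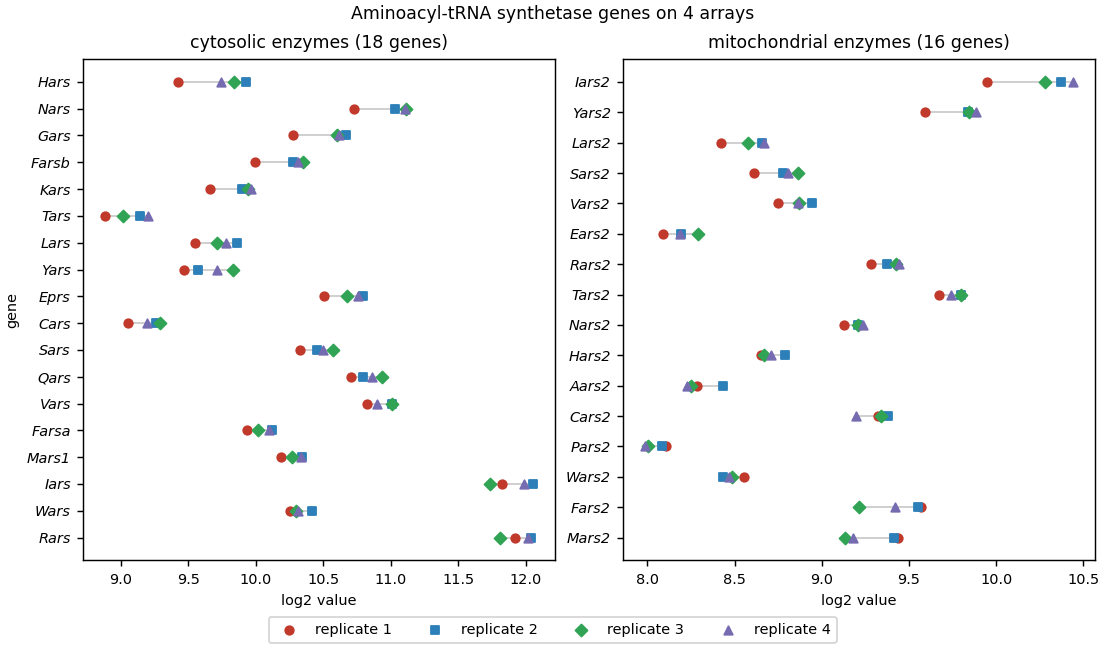
Log2 values (horizontal axis) of the 18 cytosolic and 16 mitochondrial synthetase genes (vertical axis), 1 symbol per replicate array and a grey line over the range, ordered by the shift of replicate 1. Replicate 1 was the lowest array for 16 cytosolic and 10 mitochondrial genes.

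The array of replicate 1 held lower values for every cytosolic synthetase gene. The shift of a gene on an array is its log2 value there less its mean on the other 3. All 18 cytosolic genes had a shift below 0 on the array of replicate 1, with a median of -0.22 and a range of -0.41 to -0.04. Over all 12658 genes above background, 47.8% had a shift below 0 on that array and the median shift was 0.01. Replicate 1 was the lowest of the 4 arrays for 16 of the 18 genes, against 29.0% of all genes; the exceptions were Iars and Rars, both lowest on replicate 3. With the other Iars probe set the count was 17. A shift of -0.1 or lower, a limit set after the values were seen, was found for 15 of the 18, against 27.5% of all genes.

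Hars, which charges histidine tRNA, moved the most among the cytosolic enzymes, with log2 values of 9.43, 9.93, 9.84 and 9.75 on the arrays of replicates 1 to 4. Nars, the asparagine enzyme, was at 10.73, 11.03, 11.12 and 11.10. In both genes the array of replicate 1 was the lowest, and the SD without it was 0.090 for Hars and 0.046 for Nars. Gars, the glycine enzyme of both compartments, was at 10.28, 10.67, 10.60 and 10.62. Farsb, the beta subunit of the phenylalanine enzyme, was at 9.99, 10.28, 10.35 and 10.31, and its partner Farsa, the alpha subunit, at 9.94, 10.12, 10.02 and 10.10. Both subunits had their lowest value on the array of replicate 1, with shifts of -0.32 for Farsb and -0.14 for Farsa. The SD over the 4 arrays was 0.18 for Gars and 0.033 without replicate 1, and for Farsb it was 0.16 and 0.037.

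Yars, the tyrosine enzyme, was spread more evenly, at 9.47, 9.57, 9.84 and 9.71. Its SD was 0.16 and still 0.13 without replicate 1. Lars, which charges leucine tRNA and is known as a leucine sensor of the mTORC1 pathway, was at 9.55, 9.86, 9.72 and 9.78. The steadiest cytosolic members were Wars, the tryptophan enzyme that interferon-gamma induces in many cells, with an SD of 0.068, and Mars1, the methionine enzyme, with an SD of 0.073. Wars was at 10.26, 10.42, 10.30 and 10.31, and Mars1 at 10.19, 10.35, 10.27 and 10.34. In both the distance between the lowest and the highest array was 0.16.

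Iars, the isoleucine enzyme, was at 11.83, 12.06, 11.74 and 11.99 on the probe set used, and at 11.23, 11.38, 11.25 and 11.35 on its other probe set. The shifts on the array of replicate 1 were -0.10 and -0.09, and the lowest array was replicate 3 on the first and replicate 1 on the second. The remaining cytosolic members had shifts on the array of replicate 1 of -0.28 for Kars (lysine, both compartments), -0.24 for Tars (threonine), -0.23 for Eprs, which charges both glutamate and proline tRNA, and -0.20 for Cars (cysteine). They were -0.18 for Sars (serine), -0.16 for Qars (glutamine), -0.15 for Vars (valine) and -0.04 for Rars (arginine). These shifts are small in linear terms and none was tested on its own.

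Mitochondrial synthetase genes leaned the same way on this array, with exceptions. Of the 16 genes 11 had a shift below 0 on the array of replicate 1, against 47.8% of all genes. The median was -0.10, with a range of -0.42 to 0.20. A shift of -0.1 or lower was found for 8 of them, against 27.5% of all genes. The array was the lowest for 10, against 29.0% of all genes, and the highest for 4, against 33.2%. Iars2, the mitochondrial isoleucine enzyme, had the lowest shift, with log2 values of 9.95, 10.37, 10.28 and 10.44. Yars2, for tyrosine, followed with 9.59, 9.84, 9.85 and 9.88. The array of replicate 1 was clear of the other arrays in both. Lars2, the leucine enzyme, was at 8.42, 8.65, 8.57 and 8.67.

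The highest shifts on the array of replicate 1 were those of Mars2 (0.20) and Fars2 (0.18). Fars2, which charges phenylalanine tRNA as a single chain, was at 9.57, 9.55, 9.21 and 9.42. Mars2, the mitochondrial methionine enzyme, was at 9.44, 9.41, 9.13 and 9.18. In both the arrays of replicates 1 and 2 were higher than those of replicates 3 and 4. Hars2, the histidine enzyme, was at 8.65, 8.79, 8.67 and 8.71. Nars2, for asparagine, was the steadiest member of all 34, at 9.12, 9.21, 9.21 and 9.24 with an SD of 0.048, followed by Wars2, for tryptophan, at 8.55, 8.44, 8.48 and 8.47 with an SD of 0.050. Shifts on the array of replicate 1 were -0.20 for Sars2 (serine), -0.15 for Vars2 (valine), -0.13 for Ears2 (glutamate) and Rars2 (arginine) and -0.11 for Tars2 (threonine). They were -0.02 for Aars2 (alanine), 0.02 for Cars2 (cysteine) and 0.08 for Pars2 (proline).

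**Figure D2:**
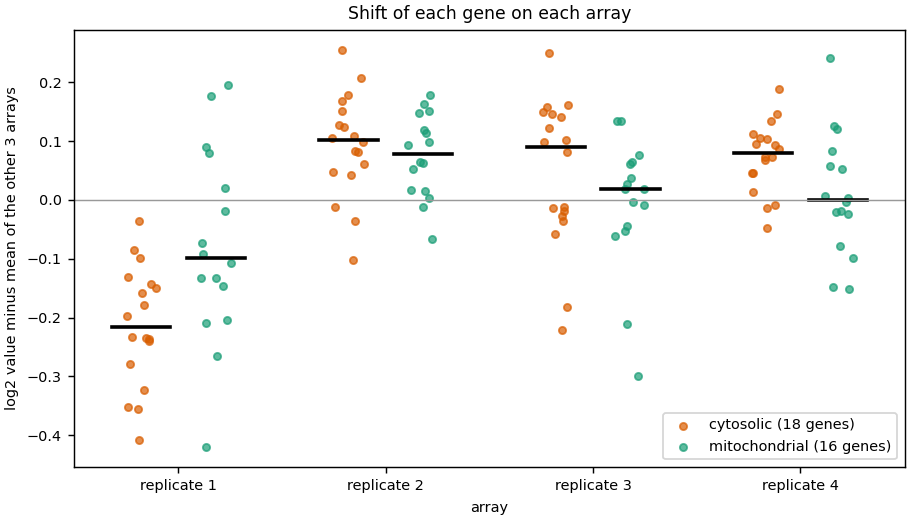
Shift of each gene (vertical axis, log2 value less the mean on the other 3 arrays) on the 4 arrays (horizontal axis), for cytosolic and mitochondrial synthetase genes, with points for genes and black bars for medians. On the array of replicate 1 all 18 cytosolic points lie below 0 and their median is -0.22, with 11 of 16 mitochondrial points below 0 and a median of -0.10.

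On the other arrays both classes lay closer to 0. The median shifts of the cytosolic genes were 0.10, 0.09 and 0.08 on the arrays of replicates 2, 3 and 4, and those of the mitochondrial genes were 0.08, 0.02 and -0.00045. These means include replicate 1. Among the arrays of replicates 2 to 4 alone the cytosolic medians were 0.048, -0.018 and 0.0030, and the mitochondrial medians 0.031, -0.022 and -0.021. Without replicate 1 the sign thus turned for both classes on the array of replicate 3, and the cytosolic median on that of replicate 4 came close to 0. Most members were higher on the array of replicate 2, with 15 of 18 cytosolic and 14 of 16 mitochondrial genes above the mean of the others, against 49.8% of all genes. Shifts above 0 were found for 10 of 18 and 9 of 16 genes on the array of replicate 3 (52.3% of all genes) and for 15 of 18 and 8 of 16 on that of replicate 4 (45.5%). Among replicates 2 to 4 alone the counts were 12 of 18 and 10 of 16 on replicate 2, 9 and 6 on replicate 3, and 9 and 7 on replicate 4. The share of all genes was not computed without replicate 1, so these counts are given as a description.

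The spread over the arrays lay near that of other genes. The median SD was 0.13 for cytosolic genes and 0.082 for mitochondrial genes, and 0.11 for all 12658 genes above background. Without replicate 1 it was 0.063 for cytosolic genes, 0.052 for mitochondrial genes and 0.094 for all genes. The cytosolic and the mitochondrial value thus both moved by more than 1.5 times when that 1 array was left out. The cytosolic value was then below that of all genes, as the mitochondrial value was with and without replicate 1. By Dixon's ratio, 1 array stood apart in 2 of 34 members, against 5.39% of all genes above background.

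Enzymes for the same amino acid were then compared across compartments by their shifts on the array of replicate 1. Of 16 pairs (Eprs entered for glutamate and for proline, and Fars2 with each subunit of the cytosolic enzyme) the cytosolic gene had the lower shift in 12, with a median difference of -0.15. Pairs that share a gene are not independent. On the arrays of replicates 2, 3 and 4 the cytosolic gene had the lower shift in 7, 6 and 5 of the 16 pairs. On the array of replicate 1 the gap was -0.50 for Farsb against Fars2, -0.34 for Hars against Hars2 and -0.33 for Mars1 against Mars2. It was as small as -0.003 for Vars against Vars2. The 4 remaining pairs went the other way, led by Iars against Iars2 with a difference of 0.32. Between the class medians the difference was -0.12 on the array of replicate 1, and 0.02, 0.07 and 0.08 on those of replicates 2, 3 and 4. With 1 array on the low side it has no test.

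**Figure D3:**
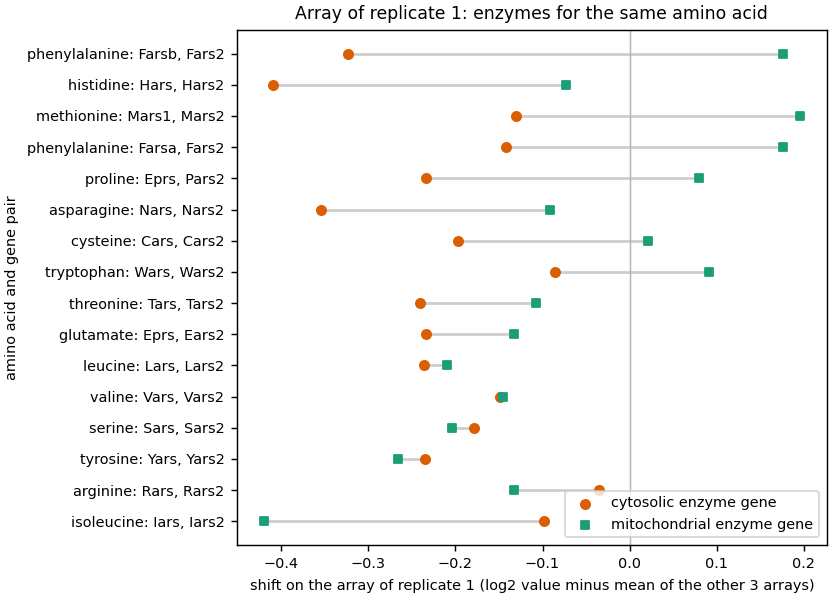
Shifts on the array of replicate 1 (horizontal axis, log2) of the cytosolic and the mitochondrial synthetase gene for the same amino acid (vertical axis), ordered by their difference, with a grey line joining each pair. The cytosolic gene is lower in 12 of 16 pairs, and Iars with Iars2 at the bottom is the widest pair in the other direction.

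Within the cytosolic enzymes, the 2 structural classes of synthetases, which differ in the fold of the catalytic domain, were set side by side. Genes were counted: Farsa and Farsb, subunits of 1 enzyme, both as class II, and Eprs, which charges glutamate and proline tRNA, as class I only. The 8 class II genes had a median shift of -0.30 on the array of replicate 1, from -0.41 to -0.14. For the 10 class I genes it was -0.15, from -0.24 to -0.04. The order was reversed in the mitochondria, where 7 class II genes had a median of -0.07 and 9 class I genes one of -0.13. The 7 enzymes of the multisynthetase complex with a probe set (Eprs, Iars, Kars, Lars, Mars1, Qars and Rars) had a median shift of -0.16. The 11 cytosolic genes outside it had one of -0.23. No difference between these subgroups was tested.

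The 3 scaffold genes of the complex were also lowest on the array of replicate 1, against 29.0% of all genes, with a median shift of -0.28. On the arrays of replicates 3 and 4 their median shifts were 0.19 and 0.01, beside -0.01 and 0.09 for the enzymes of the complex. Eef1e1, which encodes the p18 subunit, was at 10.22, 10.68, 10.54 and 10.49. Aimp2 was at 9.67, 9.99, 10.08 and 9.79, and Aimp1 at 8.40, 8.53, 8.71 and 8.64. All 12 genes of synthetase-like, editing and charging factors were above background, against 63.5% of all genes. On the array of replicate 1, 8 of the 12 had a shift below 0, against 47.8% of all genes, with a median of -0.16. Tarsl2, a second cytosolic threonine enzyme gene outside the naming rule, was at 8.0, 8.76, 8.45 and 8.53, and Aarsd1, an alanyl-tRNA editing factor, at 8.85, 9.29, 9.50 and 9.22. Both had lower shifts on the array of replicate 1 (-0.58 and -0.48) than any of the 34 members. Qrsl1, a subunit of the mitochondrial enzyme that amidates glutamyl-tRNA, was lower on the array of replicate 2, at 8.67, 8.49, 8.66 and 8.68.

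Elongation factors, which take charged tRNA to the ribosome or move the ribosome on, had median shifts nearer to 0. The 4 cytosolic ones with a probe set had a median shift of -0.08 on the array of replicate 1 and the 4 mitochondrial ones one of -0.04. Eef1b2 was at 11.92, 12.10, 12.33 and 12.11, and Eef1d at 9.16, 9.39, 9.27 and 9.32; both belong to the exchange factor of the elongation factor that carries tRNA, and both were lowest on replicate 1. Of the mitochondrial factors, Gfm1 was at 9.19, 9.43, 9.37 and 9.39 and Tsfm at 9.10, 9.22, 9.10 and 8.98.

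The amino acid response genes were mixed on the array of replicate 1. All 20 were above background, against 63.5% of all genes. Their median shift on that array was -0.03, and 12 of 20 were below 0, against 47.8% of all genes. On that of replicate 2, 15 of 20 were above 0 with a median of 0.09, against 49.8% of all genes. Without replicate 1 the count was 13 of 20 with a median of 0.06, and no share of all genes was computed for it. Atf4, the transcription factor of the pathway, was at 8.64, 8.70, 8.73 and 8.58, and its shift was -0.03. Asns had the lowest shift of the list at -1.14, with log2 values of 10.68, 11.90, 11.68 and 11.86. Cebpb, a C/EBP partner of ATF4, was at 9.18, 8.41, 8.57 and 8.63 and had the highest shift at 0.65. Asns was thus lowest on the array on which Cebpb was highest. Slc7a5 and Slc3a2, which form a transporter of large neutral amino acids, had shifts of -0.43 and -0.24. Slc7a11, the cystine transporter, was higher on the array of replicate 2, at 7.48, 7.83, 7.47 and 7.47.

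Erythroid, early B-cell and pre-B markers had larger median shifts on the same array than the synthetase genes, and the other marker lists smaller ones. The array of replicate 1 had lower values for all 8 erythroid markers, against 47.8% of all genes, with a median shift of -1.22. None of the 11 early B-cell markers was lower there, and their median shift was 0.76. The summed linear level of the erythroid list, on the log2 scale, was 13.55 on that array and 14.33 to 14.52 on the others. For the early B-cell list it was 14.99 there and 13.92 to 14.50 on the others. The granulocyte and monocyte list had the highest summed level of the marker lists on every array, at 16.056 on replicate 1 and 16.001 to 16.294 on the others. The lists differ in their number of genes and probe sets are not on 1 scale, so no shares of cells are read from these sums. Median shifts on the array of replicate 1 were 0.45 for pre-B and immature B-cell markers (6 genes) and -0.03 for granulocyte and monocyte markers (12). They were 0.09 for plasma cell markers (5) and -0.08 for T and NK cell markers (6). Fewer cells of a type and less RNA per cell cannot be told apart in these bulk samples. The part of these cell types in the shift of the synthetase genes was not tested. The early B-cell markers shifted by a median of -0.58 on replicate 4, where the cytosolic synthetase genes had a median shift of 0.08. Without replicate 1 these medians were -0.36 and 0.0030. The array of replicate 2 had median shifts of 0.55 for the erythroid markers and 0.10 for the cytosolic synthetase genes, and these were 0.17 and 0.048 without replicate 1. For granulocyte and monocyte markers it was -0.47 there, and -0.49 without replicate 1.

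**Figure D4:**
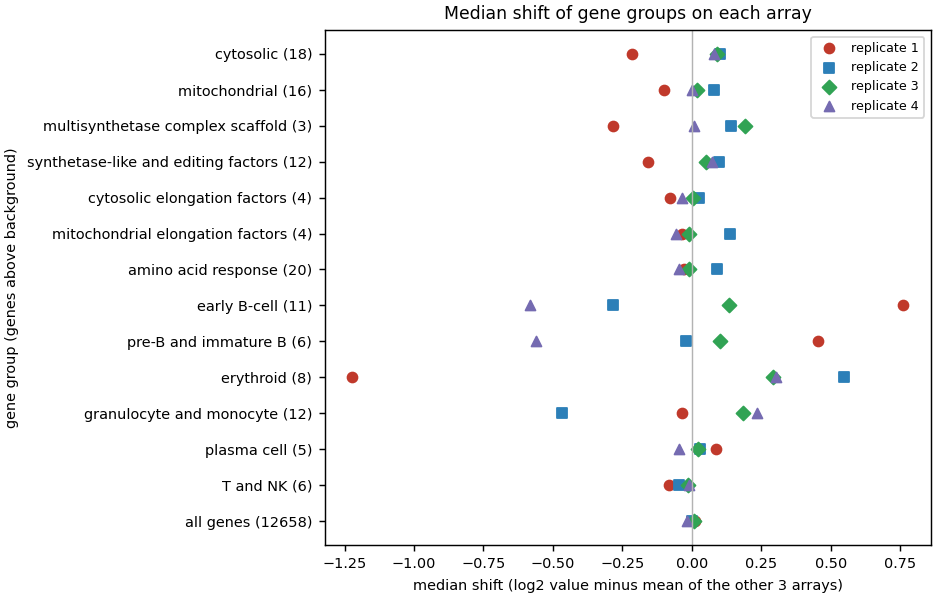
Median shift (horizontal axis, log2 value less the mean on the other 3 arrays) of gene groups (vertical axis, with the number of genes above background) on the arrays of replicates 1 to 4, each with its own symbol. On the array of replicate 1 the erythroid symbol lies at -1.22, the early B-cell symbol at 0.76, the cytosolic synthetases at -0.22 and all genes at 0.01.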

How the data were processed

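Total RNA of wild-type pro-B cells was hybridized in 4 replicates, 1 per Mouse Gene 1.0 ST array (Affymetrix), which form 1 group. The authors deposited log2 intensities per probe set; RMA is named for background correction and normalization. How strict their filter on low expression was, and which arrays were normalized together, is not stated in the sources. Each column carries its sample's name, with 0 left over. The platform annotation lists 1 symbol for 21640 probe sets, several for 1321 and none for 11799. Gene identifiers of all 34 members were found in the reference gene table. A gene with several probe sets was given by the one with the highest mean.

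A gene was above background when it passed, on all 4 arrays, the 95th percentile of receptor genes taken as silent. Shifts and SDs were computed on the log2 scale. The limma test was one-sided, adjusted by Benjamini-Hochberg over all probe sets, and like the shifts was tested on simulated data. Dixon's critical value was 0.829. Alternatives were other background lines and rules, quantile normalization, median centring, cyclic loess, means, the range, no filter, every probe set, leaving out Gars and Kars, and leaving out each replicate. Members and lists were chosen with earlier results of these data known. Values on each array are given for members with an array apart, the 5 of each class with the largest SD, the 2 with the smallest, their partners for the same amino acid, and, in the lists of charging, elongation and amino acid response genes, the 2 with the largest SD (marker lists are given by medians); others were chosen after their values were seen. The fit used limma 3.58.1 in R 4.3.3; the other steps used pandas 2.3.3, numpy 2.4.6 and matplotlib 3.10.9 in Python 3.11.15. The number of arrays limits the precision.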

Additional observations from a re-analysis of the deposited data

Results flagged for a closer look

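A single array stood far from the others, by Dixon's ratio, in 2 of 34 synthetase genes and in 2 of 43 other pathway genes, where chance flags about 1 in 20. The marker lists are not part of the 43. Among them it was 3 of 8 erythroid genes, 3 of 12 granulocyte and monocyte genes and 0 in each other marker list. On the array of replicate 1, Gars was at 10.28 against 10.60 to 10.67 on the others, and Yars2 at 9.59 against 9.84 to 9.88. On the array of replicate 2, Qrsl1 was at 8.49 against 8.66 to 8.68 on the others, and Slc7a11 at 7.83 against 7.47 to 7.48.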

How the results depend on the processing

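No paired analysis was possible because the 4 arrays form 1 group. All 34 members stayed above background under each of the 10 alternatives tried. The range in place of the SD gave medians of 0.299 for cytosolic genes, 0.199 for mitochondrial genes and 0.253 for all genes, by construction on another scale. With cyclic loess 4 members had 1 array apart; the cause was not tested. Leaving out each replicate gave median SDs of 0.063 to 0.138 for cytosolic and 0.052 to 0.098 for mitochondrial genes, the lowest without replicate 1. On the array of replicate 1 the cytosolic median shift was -0.249 to -0.184 and the mitochondrial one -0.133 to -0.077 over the alternatives, and their difference -0.136 to -0.087. Added after the data were examined, counts of genes lower on that array were 17 or 18 of 18 cytosolic genes and 10 to 12 of 16 mitochondrial genes over 6 alternatives, with 17 under quantile normalization and without replicate 2. On the array of replicate 4 the mitochondrial median was -0.021 to 0.037, so its sign is not fixed.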
